A study of Mus musculus with 10 samples.

Results

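The transcription factor genes that set or tune the identity and state of microglia were followed in the hippocampus of female tau transgenic mice given dihydrotestosterone (DHT). They were Spi1, Runx1, Mef2c, Cebpa, Cebpb, Bhlhe40, Bhlhe41, Mitf and Tfec. The members were chosen by name, and their 9 gene identifiers are 9 of 56884 in the count table. Of these, 8 had enough counts to be tested and Tfec did not. All mice carried the PS19 (hTau) transgene, in which the mouse Prnp promoter drives human tau with the P301S mutation, so the controls carried it too and no animal without it was compared here. The mice were ovary-intact females. They received a subcutaneous SILASTIC tube at 6 months of age, and hippocampus was collected 12 weeks later at 9 to 9.5 months. In 5 mice the tube held 10 mm of DHT, an androgen that aromatase cannot turn into estrogen, and in the other 5 it was empty (void). Each library came from 1 mouse, and mice are named here by the numbers in their labels, which are 4, 5, 9, 10 and 11 for void and 1, 2, 3, 5 and 6 for DHT.

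Microglia, the resident macrophages of the brain, depend on a small set of lineage factors. PU.1, the product of Spi1, is the ETS-family factor that opens the enhancers of myeloid genes, and it works beside RUNX1 and C/EBP alpha. MEF2C restrains inflammatory activation in microglia but is also abundant in excitatory neurons of the cortex. C/EBP beta drives inflammatory genes, BHLHE40 and BHLHE41 are E-box repressors that act in macrophages and in the circadian clock, and MITF and TFEC belong to the MiT/TFE family that controls lysosomal genes. In bulk tissue, a change in the number of cells of a type and a change in RNA per cell cannot be told apart.

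Total counts per mouse ranged from 27188854 to 47113661. Excitatory neuron markers were plentiful in every mouse, at a summed 4248 to 6269 CPM (counts scaled to a common library size after TMM normalization), and each of the 10 listed microglia markers was tested. Their sum was 451 to 526 CPM in void mice and 634 to 894 CPM in DHT mice, with no overlap. The sum of 10 choroid plexus markers was 112 to 1804 CPM in void mice and 2032 to 2878 CPM in DHT mice, again with no overlap, and its part in the results was not tested beyond the covariate fits given below. Neutrophil and monocyte markers summed to at most 2.30 CPM and lymphocyte markers to at most 0.519 CPM in any mouse. Of 6 border macrophage markers tested, edgeR and DESeq2 called 0 (1 at an unadjusted p under 0.05). Over all genes tested, edgeR called 5.22% higher and 0.261% lower. The sum of the border macrophage markers was 2.45 to 15.5 CPM with void and 5.57 to 12.7 CPM with DHT. The void libraries all have lower library numbers than the DHT libraries, so library number and treatment cannot be told apart.

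Promoter sequence was held for 7 of the 9 members, with 12 start sites, in a RefSeq table of the GRCm38.p6 build. Spi1 and Bhlhe40 had no entry in it. The kinds of site read by the members themselves or by nuclear receptors were searched on both strands from 250 bases before each start to 50 after it, together with a MEF2 site and a DR1 element. The letters were GAGGAAGT for ETS factors, TTGCNNAA for C/EBP, TGTGGT for RUNX, CACGTG for the E-box and AGGTCA for the nuclear receptor half-site. The DR1 element was AGGTCANAGGTCA, which contains the half-site. The letters taken for MEF2 were CTANNNNTAG with any base at each N, so a match need not be a MEF2 site. A promoter is printed where it holds an E-box, a RUNX or a C/EBP match in the bases before the start and belongs to a member described at length below. Each is the 250 bases before the start, 5′ to 3′ on the strand of the gene, with matches in capitals. The Runx1 stretch is chr16:92826075-92826324 on the minus strand, the Mitf stretch is chr6:97806808-97807057 on the plus strand and the Bhlhe41 stretch is chr6:145865421-145865670 on the minus strand.
Runx1: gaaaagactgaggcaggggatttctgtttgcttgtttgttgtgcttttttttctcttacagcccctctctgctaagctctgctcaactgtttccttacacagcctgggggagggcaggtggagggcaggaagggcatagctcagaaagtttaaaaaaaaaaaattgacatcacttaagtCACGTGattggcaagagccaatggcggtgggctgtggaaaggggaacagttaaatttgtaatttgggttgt
Mitf: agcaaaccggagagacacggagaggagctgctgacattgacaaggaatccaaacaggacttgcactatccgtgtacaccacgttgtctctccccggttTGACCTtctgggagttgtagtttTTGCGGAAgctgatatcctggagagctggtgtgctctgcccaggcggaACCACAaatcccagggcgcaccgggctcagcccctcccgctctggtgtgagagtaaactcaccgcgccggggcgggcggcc
Bhlhe41: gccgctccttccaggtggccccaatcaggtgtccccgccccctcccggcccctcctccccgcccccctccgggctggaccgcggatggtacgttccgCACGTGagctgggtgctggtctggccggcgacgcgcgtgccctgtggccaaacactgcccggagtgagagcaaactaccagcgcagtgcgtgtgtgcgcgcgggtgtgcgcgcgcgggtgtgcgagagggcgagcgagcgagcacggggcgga

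The first Runx1 start held an E-box whose first base lay at -71 from the start, and 2 RUNX matches inside the transcript, at 29 and 37. The first Mitf start held a half-site at -152, a C/EBP match at -129 and a RUNX match at -81. Bhlhe41 held an E-box at -153. Elsewhere, the second Mitf start had a C/EBP match at 36, starts 2 and 3 of Mef2c held half-sites and Tfec had a RUNX match at -221. No searched letters were found at the single starts of Cebpa and Cebpb. Among 32851 RefSeq promoters of the same length, 3.20% held the ETS letters, 10.8% C/EBP, 16.8% RUNX, 7.15% the E-box, 16.3% the half-site, 3.69% MEF2 and 0.0396% DR1. The matches describe letters in these windows and show no binding.

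Per kilobase of exon, with lengths from the GENCODE M21 annotation, the members spanned several orders of magnitude. The annotation release behind the counts is not given in the sources used here, so the counted exons may differ from these lengths. In void mice the mean level was 23.2 CPM per kb for Bhlhe40, 16.5 for Mef2c, 7.56 for Bhlhe41, 4.86 for Cebpa, 3.94 for Cebpb, 2.19 for Mitf, 1.03 for Spi1, 0.156 for Runx1 and 0.00304 for Tfec. Bhlhe40 and Mef2c overlapped between mice, as did Cebpa and Cebpb, while the other neighbours in this order did not overlap. Tfec, the rarest, was listed at 0 counts in 3 of the void mice. In DHT mice the order was the same, with means of 22.8, 12.6, 8.26, 6.65, 4.88, 3.57, 1.90, 0.283 and 0.0105 CPM per kb. There, Bhlhe40 and Mef2c no longer overlapped, and Bhlhe41 with Cebpa, Cebpa with Cebpb and Cebpb with Mitf did.

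With DHT, 4 of the 8 members tested rose and 0 fell at an adjusted p under 0.05 in edgeR's quasi-likelihood test, adjusted by the Benjamini-Hochberg method over 17622 genes. Spi1, Runx1, Cebpa and Mitf were the 4. Over all genes tested, 5.22% were called higher and 0.261% lower. The members were chosen with earlier results of these data known, so these shares are given as description. At an unadjusted p under 0.05, the same counts of 4 and 0 were found in the members, and DESeq2 also called 4 higher and 0 lower. None of the 4 also had a log2 fold change over 1, whereas 2.17% of all genes were called higher with a log2 fold change over 1. Only Mitf was higher in every DHT mouse than in every void mouse, a pattern seen in 5.39% of genes. The median log2 fold change of the 8 members was 0.38, against 0.0094 over all genes.

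**Figure D1:**
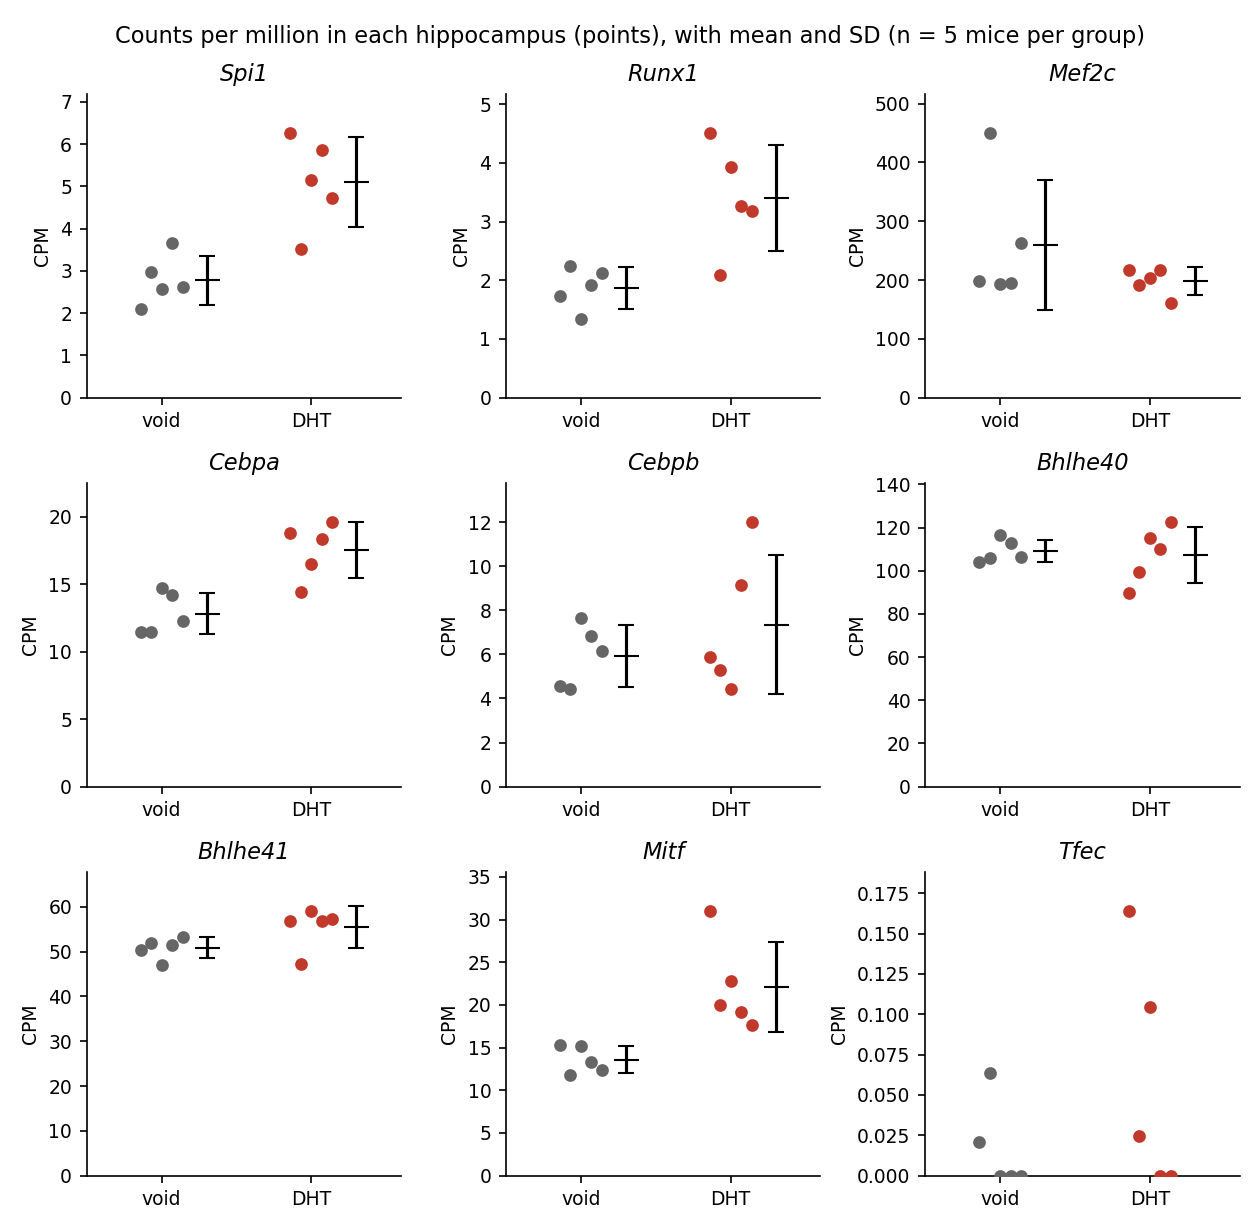
Level of each member in each mouse (points, CPM on a linear axis from 0) by implant group, with the group mean and SD beside the points (n = 5 mice) except for Tfec, which was near 0. The DHT mice lie above the void mice without overlap for Mitf, with 1 DHT mouse inside or close to the void range for Spi1, Runx1 and Cebpa, and 1 void mouse far above the rest for Mef2c.

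Spi1 (ENSMUSG00000002111), which encodes PU.1, was at 2.09, 2.97, 2.57, 3.65 and 2.61 CPM in void mice 4, 5, 9, 10 and 11 and at 6.26, 3.53, 5.15, 5.87 and 4.73 CPM in DHT mice 1, 2, 3, 5 and 6. The groups overlapped only through DHT mouse 2, which lay just under void mouse 10. The raw counts behind these values were 83 to 99 in void mice and 143 to 246 in DHT mice. The means were 2.78 ± 0.579 CPM with void and 5.11 ± 1.06 CPM with DHT (SD, n = 5 each). The log2 fold change was 0.88 (standard error 0.18), with an adjusted p of 0.0166 in edgeR's test. It was not called without void mouse 11 (adjusted p = 0.0615) or without DHT mouse 1 (adjusted p = 0.0564).

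Runx1 (ENSMUSG00000022952), a runt-domain factor of blood and myeloid development, was at 1.73, 2.24, 1.33, 1.92 and 2.13 CPM in the void mice and 4.51, 2.10, 3.94, 3.26 and 3.19 CPM in the DHT mice, in the same order of mice. DHT mouse 2 was again the lowest of its group, and it lay inside the void range. The means were 1.87 ± 0.357 and 3.40 ± 0.905 CPM (SD, n = 5 each), with a log2 fold change of 0.86 (standard error 0.21, edgeR adjusted p = 0.0332). This call was held only when void mouse 5 or DHT mouse 2 was left out, and was lost without any of the other 8 mice, with an adjusted p of up to 0.111. An antisense gene, Gm26626, shares 106 of the 12025 exon bases of Runx1.

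Cebpa (ENSMUSG00000034957) encodes C/EBP alpha, a myeloid lineage factor. Its values were 11.46, 11.47, 14.74, 14.17 and 12.28 CPM with void and 18.80, 14.39, 16.51, 18.34 and 19.59 CPM with DHT. Void mice 9 and 10 and DHT mouse 2 met in the middle, and the other DHT mice lay above all void mice. The means were 12.8 ± 1.54 and 17.5 ± 2.09 CPM (SD, n = 5 each). On the log2 scale the change was 0.45 with a standard error of 0.11 (edgeR adjusted p = 0.0299). The call was held without void mouse 9, void mouse 10 or DHT mouse 2 and lost without any of the other 7 mice, with an adjusted p of up to 0.106.

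Cebpb (ENSMUSG00000056501), the inflammatory C/EBP factor, did not pass the test. It was at 4.57, 4.44, 7.63, 6.83 and 6.14 CPM with void and 5.87, 5.28, 4.44, 9.13 and 12.00 CPM with DHT. DHT mice 5 and 6 were above every void mouse while DHT mice 1 and 2 lay within the void range and DHT mouse 3 at its lower edge. The log2 fold change was 0.31 (standard error 0.27, edgeR adjusted p = 0.637). Tmem189, on the other strand, shares 312 of the 1504 exon bases of Cebpb, and the sources used here do not say whether counting used strand.

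Mitf (ENSMUSG00000035158) encodes the MiT/TFE factor that also directs pigment cells and osteoclasts. It was at 15.28, 11.79, 15.14, 13.36 and 12.40 CPM in void mice and at 30.98, 20.04, 22.75, 19.12 and 17.63 CPM in DHT mice. DHT mouse 1 was the highest and no DHT mouse reached down to the void range. The means were 13.6 ± 1.58 and 22.1 ± 5.30 CPM (SD, n = 5 each). DHT mice were thus higher by 0.70 on the log2 scale, with a standard error of 0.15 (edgeR adjusted p = 0.0176). It was not called without void mouse 11 (adjusted p = 0.0706) or DHT mouse 3 (adjusted p = 0.0516). Among void mice, numbers 4 and 9 had the highest Mitf and also the highest summed choroid plexus markers, at 900 and 1804 CPM. Melanocyte markers summed to 0.509 to 1.44 CPM with void and 1.63 to 2.60 CPM with DHT. Beside 5.22% of all genes, 1 of the 3 melanocyte markers tested was called higher. That was Dct, a melanin enzyme gene, with a log2 fold change of 1.63, while Pmel was at 1.06 (edgeR adjusted p = 0.167), Tyrp1 at -0.10 (edgeR adjusted p = 0.957), and Mlana and Tyr were too low to test. The part of melanocytes in the Mitf result was not tested, and a choroid plexus covariate is given below.

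Tfec (ENSMUSG00000029553), the macrophage-enriched relative of Mitf, had 3 counts in the void group, over 2 mice, and 12 in the DHT group, over 3 mice. DHT mice 1 and 3 held 6 and 5 of them. Without the expression filter, edgeR gave an unadjusted p of 0.125 and an adjusted p of 0.609, so a difference was not detectable at this depth.

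Mef2c (ENSMUSG00000005583) was at 197.86, 449.77, 193.94, 194.30 and 263.27 CPM with void and 217.05, 191.89, 203.76, 216.82 and 160.24 CPM with DHT. Void mouse 5 stood far above the rest, void mouse 11 also lay above the DHT range, and the other 3 void mice lay within it. The log2 fold change was -0.39 (standard error 0.22, edgeR adjusted p = 0.403), and without void mouse 5 it was -0.10 (adjusted p = 0.738). Void mouse 5 also had the highest sum of 8 neocortex layer markers, a list added after the values were seen, at 450.7 CPM, against 329 to 405 CPM in the other void mice and 289 to 352 CPM in DHT mice. Rorb, Cux2, Lamp5 and Tbr1 were highest in void mouse 5. In contrast, Fezf2 was lowest there among the void mice, at 31.2 CPM, and Tshz2 and Scnn1a were higher in void mouse 11. The summed astrocyte and endothelial markers were also highest of all mice in void mouse 5, at 6988 and 272 CPM. Over the 10 mice with group means removed, Mef2c was also correlated with the mean log2 CPM of each marker list, rather than its sum. Pearson r was 0.76 for the neocortex markers (Spearman 0.58) and 0.85 for the endothelial markers (Spearman 0.81). All these values come from the same libraries and are given with no test. Mef2c also correlated with the astrocyte markers at 0.76 (Spearman 0.77), the choroid plexus markers at -0.66 (Spearman -0.56) and the excitatory neuron markers at -0.30 (Spearman 0.03). When the choroid plexus score entered the fit its log2 fold change turned to 0.32 (edgeR adjusted p = 0.923), and with the microglia score it was -0.67 (edgeR adjusted p = 0.795). The part of neocortex tissue in the Mef2c values was not tested.

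**Figure D2:**
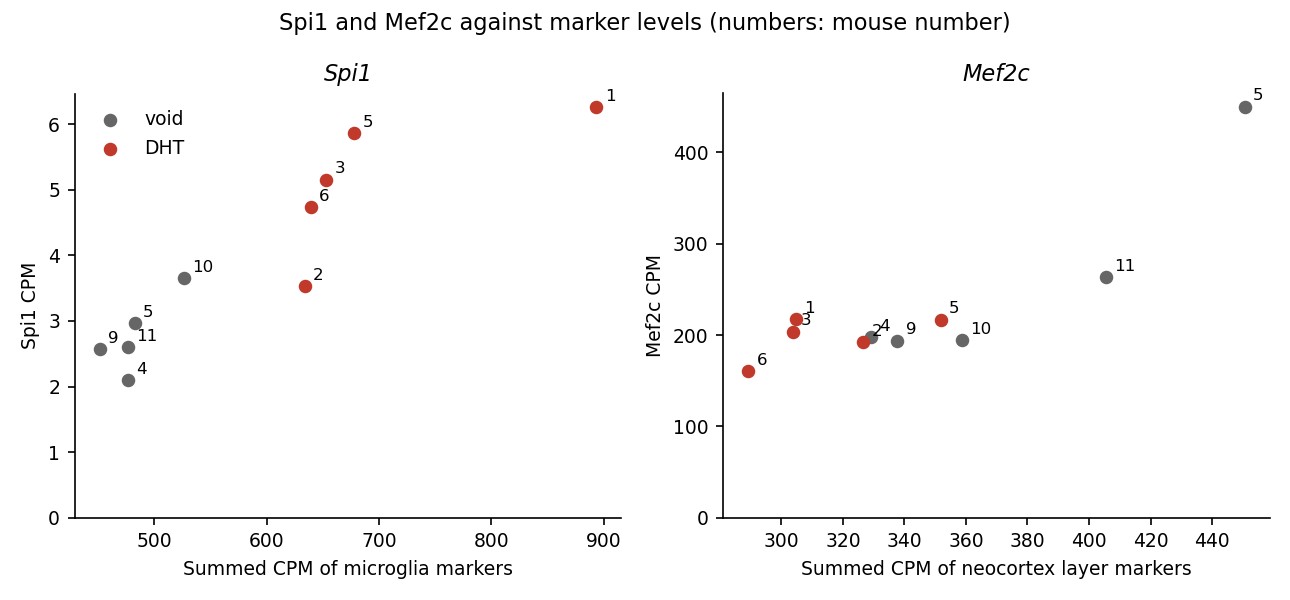
Left, Spi1 against the summed CPM of 10 microglia markers, and right, Mef2c against the summed CPM of 8 neocortex layer markers, with 1 numbered point per mouse. DHT mice lie at the upper right for Spi1, and void mouse 5, at 449.77 CPM of Mef2c, lies at the far upper right of the other panel.

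Neither of the clock-linked repressors passed the test. Bhlhe40 (ENSMUSG00000030103) was at 104.16, 106.12, 116.48, 113.01 and 106.29 CPM with void and 89.59, 99.66, 115.06, 110.01 and 122.52 CPM with DHT, so that the DHT mice spread to both sides of the void range. Its log2 fold change was -0.02 (standard error 0.08, edgeR adjusted p = 0.928). Bhlhe41 (ENSMUSG00000030256) was at 50.34, 51.96, 47.03, 51.58 and 53.17 CPM with void and 56.86, 47.28, 59.03, 56.92 and 57.37 CPM with DHT. All DHT mice but number 2 lay above the void mice. In the fit it differed by 0.13 on the log2 scale (standard error 0.07, edgeR adjusted p = 0.381). Gm43909, on the other strand, shares 1280 of the 6720 exon bases of Bhlhe41.

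Several calls were lost when a single mouse was left out or a marker score was added to the fit. Without void mouse 11 none of the members was called by edgeR, although 351 genes still were called higher, and without DHT mouse 1 or DHT mouse 3 only 1 was. With the mean log2 CPM of the choroid plexus markers as a covariate, 0 genes of 17622 were called (1155 at an unadjusted p under 0.05). In that fit the log2 fold changes were 1.01 for Spi1 (standard error 0.33), 1.23 for Runx1 (0.36), 0.28 for Cebpa (0.175) and 0.34 for Mitf (0.22). These were 114%, 143%, 63.1% and 48.9% of the first values of Spi1, Runx1, Cebpa and Mitf. The shifts were not tested. With the microglia markers as the covariate, 0 genes were called (859 unadjusted), and the values were 0.34 for Spi1, 0.10 for Runx1, 0.36 for Cebpa and 0.17 for Mitf. Both covariates ran with treatment (r = 0.80 and 0.86 with the group), which limits what these fits can resolve.

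Each member was next set against the microglial RNA of the same mouse, as its log2 CPM minus the mean log2 CPM of the 10 microglia markers. That mean was itself higher with DHT by 0.44 (two-sided exact permutation test over 10 mice, p = 0.00794, the smallest that 5 mice against 5 allow). On this relative scale Spi1 was higher with DHT by 0.42 (exact permutation p = 0.0238), and DHT mouse 2 again lay in the void range. Runx1 differed by 0.38 (exact permutation p = 0.0635), Mitf by 0.24 (exact permutation p = 0.0952), Cebpa by 0.0083 (exact permutation p = 0.976) and Cebpb by -0.20 (exact permutation p = 0.579). For Cebpa, whose level in the tissue rose, the SD of the relative level was 0.201 with void and 0.212 with DHT. Mef2c, Bhlhe40 and Bhlhe41 were lower relative to the markers in every DHT mouse than in every void mouse, by -0.76, -0.47 and -0.32. The marker mean rose by 0.44 without overlap and is subtracted from each member, and none of the 3 was called in the tissue, so these differences contain the marker rise and are given with no p. The p values on this scale were not adjusted for the 8 members. The 3 genes lower on the relative scale were also those whose level per kilobase was highest in the tissue, and the share of their RNA that came from microglia was not measured. The Spi1 difference had p = 0.0556 in the exact permutation test without void mouse 4, 9 or 11 or DHT mouse 5.

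**Figure D3:**
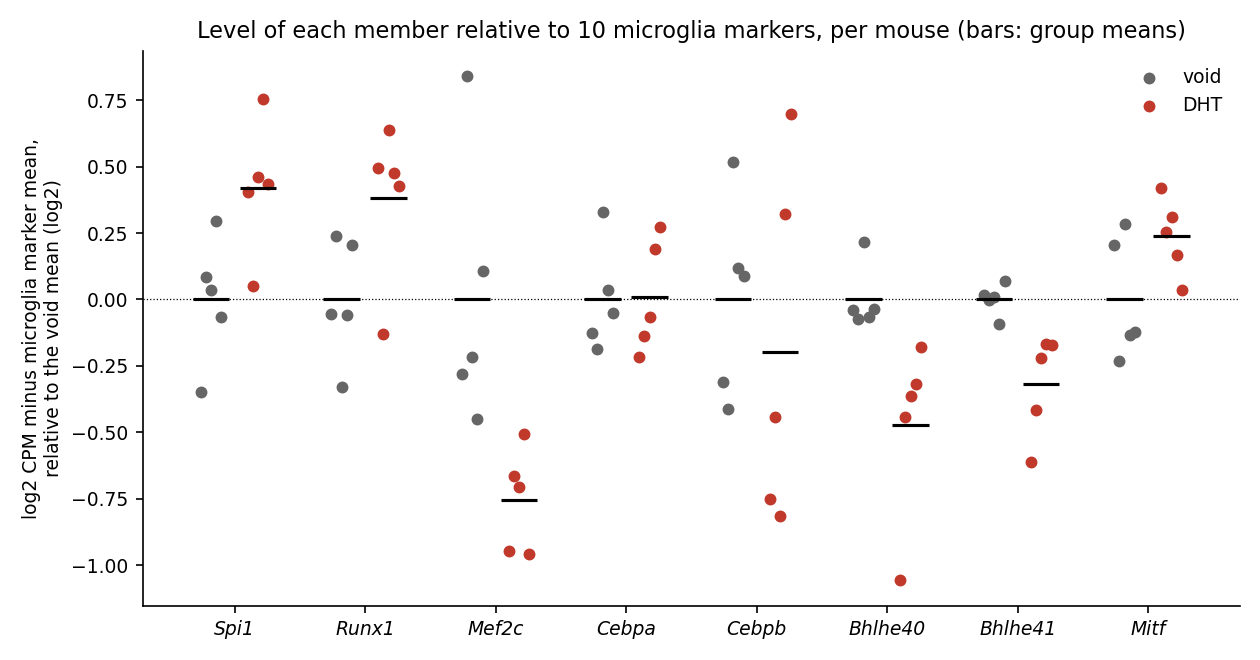
Log2 CPM of each of the 8 tested members minus the mean of 10 microglia markers in the same mouse, shifted so that the void mean is 0 (points, mice; bars, group means). Spi1 lies mostly above the void mice, Cebpa on them, and Mef2c, Bhlhe40 and Bhlhe41 below them with no overlap.

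No tested relative of a called member was called by edgeR. Of 15 relatives listed, 9 were tested and 0 were called in either direction by edgeR (1 at an unadjusted p under 0.05). Beside 5.22% of all genes called higher and 0.261% lower, 0 of 9 was near the overall share. The median log2 fold change of the relatives was 0.069. DESeq2 called 1 higher, which was Tfeb. Tfeb, the lysosomal relative of Mitf, had the smallest adjusted p (log2 fold change 0.49, adjusted p = 0.105 in edgeR's test), while Tfe3 was at 0.10. Cebpd, an acute-phase C/EBP gene, was at 0.51 (edgeR adjusted p = 0.323), Cebpg at 0.09 and Ddit3 at 0.07. Runx2 was at -0.06 and Cbfb, the shared partner of the RUNX factors, at 0.02. The PU.1 relatives Spib and Spic, together with Runx3 and Cebpe, were too low to test. The difference between a called member and its relatives was not itself tested.

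Among other transcription factors of myeloid cells, Irf8, Irf5, Ikzf1 and Elf4 rose most. Of 21 listed and tested, 8 were called higher and 0 lower, with a median log2 fold change of 0.20, beside 5.22% of all genes called higher. This list, too, was chosen with earlier results of these data known. Irf8, the partner of PU.1 at many enhancers, had the largest change, from 4.76 ± 0.466 to 10.8 ± 2.56 CPM (SD, n = 5 each; log2 fold change 1.18, edgeR adjusted p = 0.00670). Irf5, an interferon regulatory factor of inflammatory macrophages, rose by 0.84, the ETS factors Elf4 and Elf1 by 0.79 and 0.43, Ikzf1 (Ikaros) by 0.74 and Nfatc1 by 0.48 on the log2 scale. Maf, a large MAF factor of resident macrophages, rose by 0.24. The ETS factors Fli1, at 0.42 (edgeR adjusted p = 0.0839, called by DESeq2), and Etv6, at 0.01, did not pass the test. Sall1, which is also among the 10 microglia markers, was at 0.30 (edgeR adjusted p = 0.127).

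**Figure D4:**
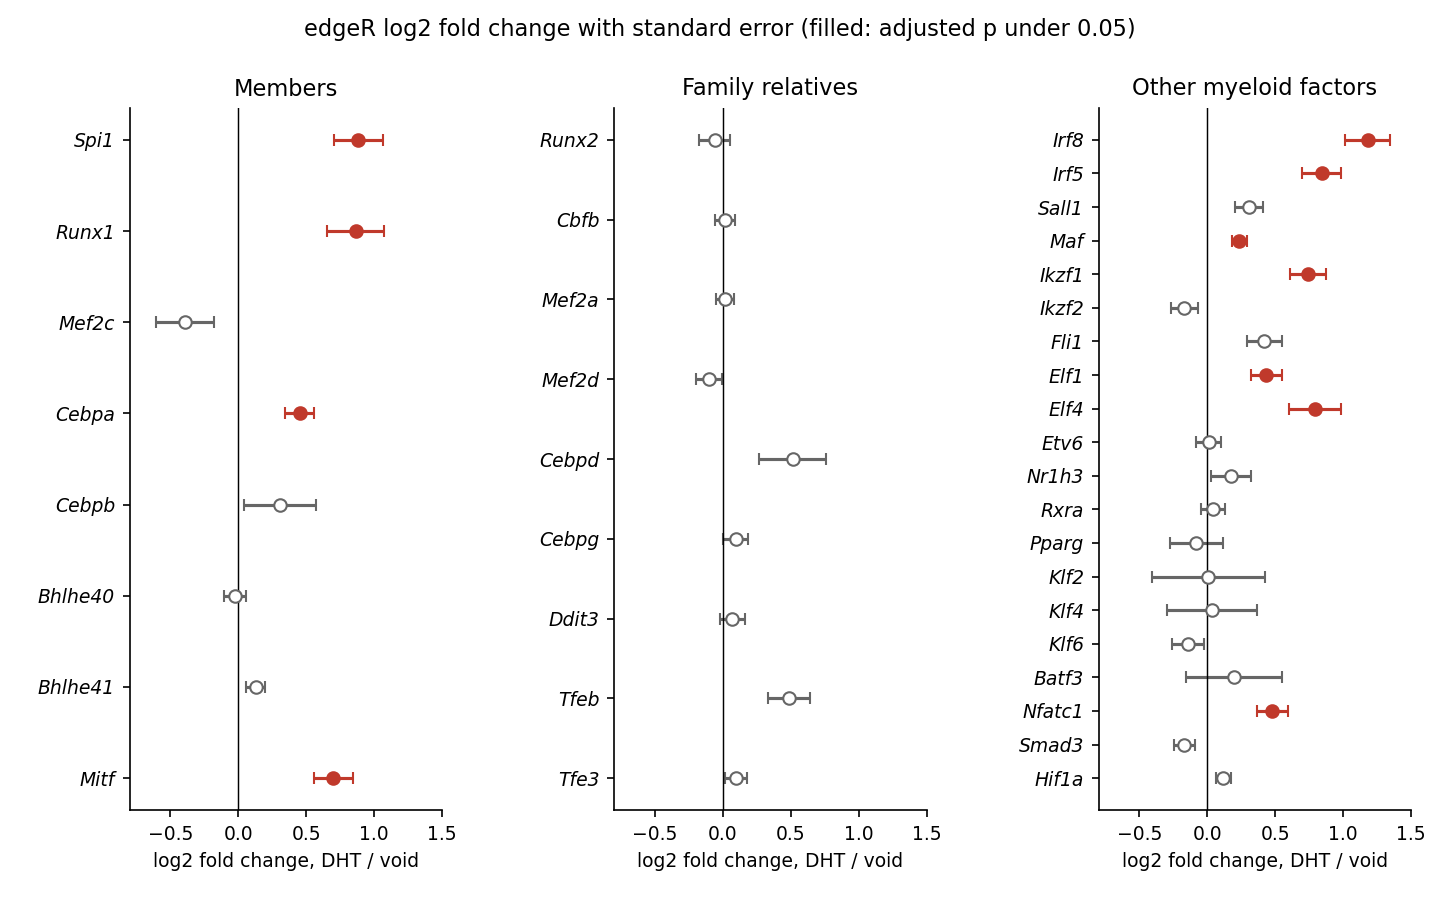
Log2 fold change of DHT over void with its standard error for the 8 members tested, 9 family relatives and other myeloid factors (1 of the 21 is not drawn), filled where the adjusted p was under 0.05. Filled points number 4, 0 and 7 in the panels, all to the right of 0, with Irf8 farthest at 1.18.

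Known target genes of the members were counted from lists of textbook targets. The lists were chosen with earlier results of these data known. The share over all genes is therefore given as description, not as a test of the lists. Of 10 PU.1 targets, 7 were called higher and 0 lower, beside 5.22% of all genes called higher, and the median log2 fold change was 0.92 against 0.0094 over all genes. Cd68, a lysosomal glycoprotein of phagocytes, rose by 1.34 (edgeR adjusted p = 0.00670), Fcgr1, the high-affinity IgG receptor, by 1.10 and Csf1r, the growth factor receptor that microglia need, by 0.55. Cybb, the catalytic subunit of the phagocyte NADPH oxidase, had the largest log2 fold change, 2.62, and Itgam the smallest, 0.55 (edgeR adjusted p = 0.0658). Cybb was low, at a mean of 1.02 CPM with void and 6.12 CPM with DHT, and its groups overlapped. These genes are expressed mostly by microglia and macrophages, and Csf1r is also one of the microglia markers.

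Of 12 C/EBP targets, 8 were tested and 5 were called higher, beside 5.22% of all genes, with a median log2 fold change of 0.86. Cd14, the lipopolysaccharide co-receptor, rose by 1.31, Il1b by 1.63, Csf3r by 0.92 and Lgmn, a lysosomal protease, by 0.48, while Ptgs2, which neurons also express, was at 0.04 (edgeR adjusted p = 0.918). Il1b was low, at 0.182 ± 0.0803 CPM with void and 0.563 ± 0.138 CPM with DHT (SD, n = 5 each). Of 14 MiT/TFE targets, 13 were tested and 2 were called higher, beside 5.22% of all genes, with a median of 0.11. These were Ctsd, the lysosomal protease cathepsin D, at 0.93 (edgeR adjusted p = 0.00801) and Lamp1, a lysosomal membrane protein, at 0.24. Gpnmb, a MITF target in pigment cells and macrophages, had the largest value, 1.02, with an adjusted p of 0.119 in edgeR's test, and Rragd the smallest, -0.07. Of 7 clock output genes that BHLHE40 and BHLHE41 repress, edgeR called 0 in either direction, beside 5.22% of all genes higher and 0.261% lower. At an unadjusted p under 0.05, 1 of the 7 was lower in edgeR, and DESeq2 called 1, Tef, lower. On the log2 scale the 7 ran from -0.17 for Tef (edgeR adjusted p = 0.159) to 0.12 for Dbp, with a median of -0.085. Whether the lists differed from one another was not tested.

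The members also differed in what varied with them from mouse to mouse. Correlations were taken over the 10 mice with group means removed, across 14683 genes with a mean of at least 1 CPM, and are descriptions of libraries that share their depth and composition. For Spi1 the genes most like it were Pmp22 (Pearson r = 0.96), Cd83 (0.95) and Hyi (0.94). For Runx1 they were Pik3ap1 (0.97), Trim7 (0.96) and Naip5 (0.94), and for Cebpa they were Tln1 (0.97), Cd37 (0.96) and Naglu (0.96). Mitf went with Pdlim5 (0.97) and Cflar (0.96). Mef2c went with Marcks (0.97), Dtl (0.96) and Tiam2 (0.96), Bhlhe40 with Kifc5b (0.97), Trim62 (0.96) and Cpne7 (0.94), and Bhlhe41 with Pole (0.97), Fbxo17 (0.95) and Tnfsf10 (0.90). Cebpb was closest to Grina (0.997), Mvb12b (0.996) and Cic (0.996).

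Among the members themselves, the highest Pearson r was between Runx1 and Bhlhe41 (Pearson r = 0.89, Spearman 0.61), followed by Cebpa with Cebpb (0.77 and 0.77) and Spi1 with Runx1 (0.68 and 0.76). By Spearman, Runx1 was closer to Spi1 and to Mef2c (0.71) than to Bhlhe41. Bhlhe40 and Mitf ran against each other (-0.60 and -0.37). Runx1 correlated with the microglia markers (0.73 and 0.88), the astrocyte markers (0.75 and 0.88) and the endothelial markers (0.71 and 0.81) alike. Spi1 correlated with the microglia (0.62 and 0.76) and astrocyte markers (0.61 and 0.67). Cebpa was nearly unrelated to those markers (0.19 and 0.08), and Cebpb followed the excitatory neuron markers (0.77 and 0.79). Mitf correlated with the microglia markers (0.66 and 0.24) and the choroid plexus markers (0.57 and 0.73), and negatively with the neocortex layer markers (-0.62 and -0.78).

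Cebpb stood out by the number of genes that moved with it. A Pearson r above 0.9 was reached by 1046 genes for Cebpb, against 55 for Mef2c, 54 for Cebpa, 17 for Mitf, 16 for Bhlhe40, 14 for Runx1, 11 for Spi1 and 2 for Bhlhe41. The 100 genes most like Cebpb had a median GC content of 59.0%, taken from the longest transcript of each gene, against 49.6% for all 14683 genes. Cebpb itself had 67.2%. The corresponding medians were 56.3% for Cebpa, 55.4% for Bhlhe40, 52.8% for Spi1, 51.5% for Bhlhe41, 48.5% for Runx1, 47.8% for Mef2c and 46.5% for Mitf. Of the 100 genes most like each member, the number called higher with DHT was 62 for Spi1, 49 for Mitf, 34 for Runx1, 28 for Bhlhe41, 21 for Cebpa and 0 for Cebpb, Mef2c and Bhlhe40. Over the 17622 genes tested, a wider set than the 14683 correlated here, 5.22% were called higher. The part of GC content in the Cebpb values was not tested.

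**Figure D5:**
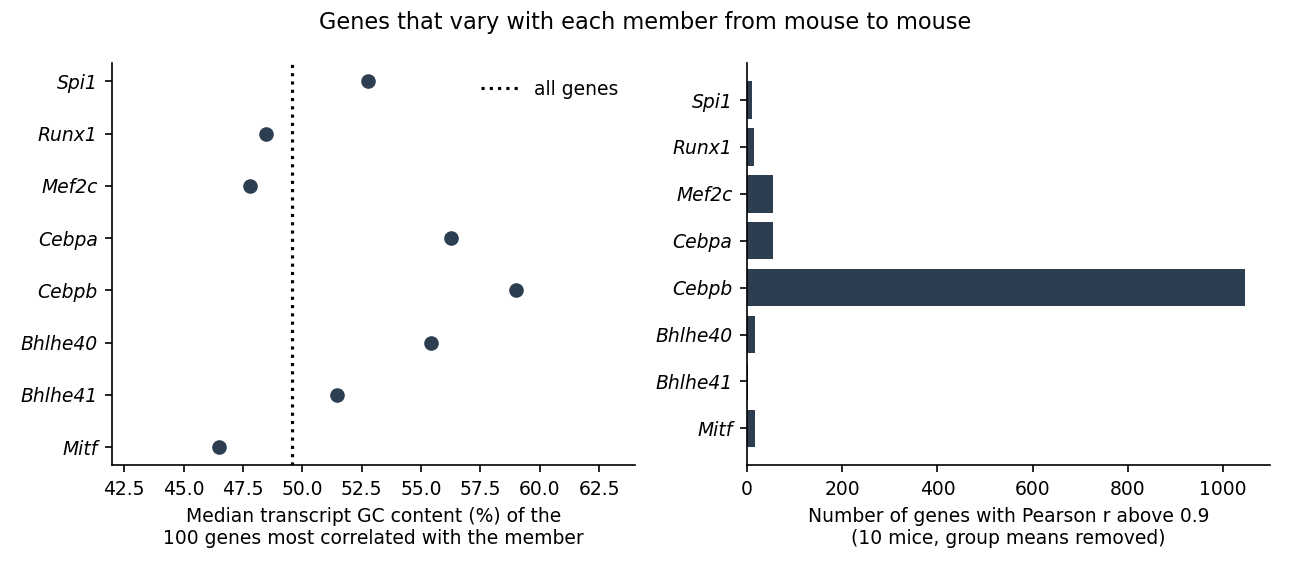
Left, median GC content of the 100 genes most correlated with each member over the 10 mice, with the median of all genes as a dotted line, and right, the number of genes with Pearson r above 0.9. Cebpb lies farthest right in both panels, at 59.0% and 1046 genes.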

How the data were processed

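RNA was measured by sequencing in hippocampus of 5 void and 5 DHT mice, with 1 library per mouse. The authors prepared mRNA libraries with the KAPA mRNA HyperPrep kit, filtered reads with HTStream, aligned them with STAR 2.7.10b and deposited raw counts for each gene, not normalized. The study's methods name mm10 and the submitters' processing notes name mm39, while the counting program and its use of strand are not given in the sources used here. Of 56884 identifiers, 51948 had a symbol in GENCODE M21, and only 35 of the identifiers carried the same version there. M21 was used for names, exon lengths, GC content and overlaps, which may differ from those of the release behind the counts. Promoters came from RefSeq on GRCm38.p6, with no coordinates taken from the count table.

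Groups came from the sample labels. Counts were tested in R 4.3.3 with edgeR 4.0.16 (TMM, filterByExpr, quasi-likelihood, 17622 genes, Benjamini-Hochberg adjustment over all of them, calls at 0.05). The standard error is the log2 fold change over the square root of F. Log2 CPM used a prior count of 2. DESeq2 1.42.0, which the authors used, was an alternative. The tests were tested on simulated data. Total counts per mouse were 27188854 to 47113661, and counting error was not separated from the spread between mice.

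The members and lists were chosen with earlier results of these data known. All 9 members are named. Relatives and other myeloid factors are named where called or in the family of a called member, target genes where largest, smallest or among the first 4 called by adjusted p, and the 3 genes most like each member. Sall1 and the marker genes named beyond that rule were picked once their values had been seen. Values of 3 other genes covered by this rule are not reported here.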

Additional observations from a re-analysis of the deposited data

Results flagged for a closer look

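In each group of 5 mice, the gap between the outermost mouse and its nearest neighbour was divided by the range of the group on the log2 scale, for the members and for the summed marker lists, and 3 of 46 groups exceeded 0.71 (Dixon's limit for 5 samples). Chance would give about 2.3 of 46. On the linear CPM scale 5 of 46 did, the same 3 with Mef2c in the void group (0.729) and the pericyte and smooth muscle markers in the DHT group (0.731). For Bhlhe41 in the DHT group the ratio was 0.831, where DHT mouse 2 was at 47.28 CPM while the other DHT mice lay between 56.86 and 59.03 CPM. For the summed microglia markers in the DHT group it was 0.805, with DHT mouse 1 the highest at 894 CPM. For the summed astrocyte markers in the DHT group it was 0.934, with DHT mouse 1 again the highest, at 6508 CPM. DHT mouse 1 also had the highest Spi1, Runx1 and Mitf of all mice, and DHT mouse 2 the lowest Spi1, Runx1 and Cebpa of its group.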

How the results depend on the processing

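The same number of members, 4, was called higher with DESeq2, with DESeq2 size factors, with library size alone and with either of the other expression filters, and DESeq2 called 1228 genes higher and 233 lower, against 920 and 46 in edgeR. Requiring a log2 fold change over 1 as well left 382 genes higher, 4 lower and 0 members. With the choroid plexus or the microglia marker covariate, 0 genes were called higher, 0 lower and 0 members. In these fits the Mef2c log2 fold change turned to 0.32 (choroid plexus) and that of Bhlhe40 to 0.22 (microglia). Leaving out each mouse in turn gave 351 to 1072 genes higher, 5 to 77 lower and 0 to 4 members higher, with none lower. The Bhlhe40 log2 fold change then ranged from -0.077 to 0.0013 and the Cebpa level relative to microglia markers from -0.058 to 0.090, both around 0. Of the fold changes of single members, 106 alternatives kept direction and side of the threshold, 27 lost a call and 3 turned direction. Only the 4 called members could lose a call. Over 17 alternatives each, the call was lost in 4 for Spi1, 10 for Runx1, 9 for Cebpa and 4 for Mitf. Of the relative levels, 85 kept both, 4 lost and 2 gained a p under 0.05 and 5 turned. The 85 include all 12 alternatives each for Mef2c, Bhlhe40 and Bhlhe41. Their differences contain the marker rise, so these are not counted as held results. Spi1 kept both in 8 of its 12 and lost a p under 0.05 in 4. No paired analysis was possible because just 1 mouse number occurs in both groups, and a number does not mark a shared litter or day in the labels. Depth limits Tfec, with 3 and 12 counts per group.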
